A study of Sus scrofa with 6 samples.

Results

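FOXO transcription factors and the ubiquitin ligases and ligase adaptors enriched in muscle were followed in porcine satellite cells (PSCs), stem cells of skeletal muscle whose offspring fuse into myotubes, between 2 times of differentiation. The 10 members were listed by symbol as FOXO1, FOXO3, FBXO32, TRIM63, TRIM54, TRIM55, KLHL31, KLHL40, KLHL41 and ASB2. A row of the deposited table was found by its pig Ensembl identifier for 8 of the 10, among 28266 rows in all. TRIM54 and KLHL41 were not analysed here. PSCs of Yorkshire pigs that had differentiated for 24 h (NC24h) were compared with PSCs that had done so for 36 h (NC36h), with 3 libraries each, numbered 4, 5 and 6 in both groups. The study describes them as cells from limb muscles of 3-day-old male pigs that received a negative control (NC) siRNA and were then moved to a horse serum medium, so all 6 libraries share the transfection. The labels of the later samples give 48 h, whereas the title of the series gives 36 h, which is used here, and the NC siRNA was read from the letter N of the sample titles. Nothing in the sources used here says whether the 3 libraries of a group came from separate pigs or cultures, so p-values measure the spread between these libraries, which may be technical.

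FOXO factors are forkhead transcription factors that the kinase AKT keeps out of the nucleus while insulin and IGF signaling is active. When they enter the nucleus of a muscle fiber they turn on genes for protein breakdown, of which FBXO32 (MAFbx) and TRIM63 (MuRF1) are the classical markers of muscle atrophy. Ubiquitin ligases mark proteins for the proteasome. The TRIM proteins carry a RING domain and act as ligases on their own, whereas F-box proteins, BTB-kelch proteins and SOCS-box proteins are adaptors that bring a substrate to the cullins CUL1, CUL3 and CUL5. In muscle several of these proteins sit on the sarcomere, and KLHL40 is better known for holding thin filament proteins stable than for destroying them.

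The authors deposited FPKM values, in which a gene's fragment number is divided by transcript length and by the library's total. The fragments behind the values were recovered from the steps within each gene, and a library held between 16250222 and 16774534 of them in NC24h and between 17873849 and 21723087 in NC36h. Values were taken to log2(FPKM + 1), on which low genes show less than their full fold change, and limma with Benjamini-Hochberg adjustment was run over the 14060 genes that averaged an FPKM of 1 or more. NC24h replicate 6 stood apart from the other NC24h libraries. Of the 14 measured myotube markers 13 were higher in NC36h and 0 lower (0 also at an unadjusted p under 0.05), and their summed FPKM was 9450, 7920 and 4090 in replicates 4, 5 and 6 of NC24h and between 21300 and 24800 in NC36h. Of the 10 proliferation markers tested 8 were lower (BUB1, one of them, passed the minimum only through NC24h), and the sum of the list was 70.5, 98.4 and 195 in replicates 4, 5 and 6 of NC24h and between 22.1 and 28.6 in NC36h. The myoblast markers DES, MYOD1, MYF5, CDH15, NCAM1 and CHRNA1 were present in every library, while PAX7 was not analysed here. Their summed FPKM was between 2410 and 2660 in NC24h and between 3930 and 4310 in NC36h, and most of it was DES (1690 ± 211 and 3180 ± 268). DES, CDH15 and CHRNA1 were higher in NC36h, and MYOD1, MYF5 and NCAM1 did not pass the threshold. Of the 10 fibroblast markers tested 3 were higher and 4 lower. The summed FPKM of the 11 in the table was between 1100 and 1260 in all libraries, but it was carried by collagens that differed in direction (COL1A2 went from 693 to 450, COL3A1 from 241 to 443 and COL5A1 from 137 to 213), and DCN fell from 18.8 to 6.12 and LUM from 5.51 to 1.83. Markers of endothelium (3 in the table, summed FPKM between 1.01 and 1.67, KDR at 0), of immune cells (4, between 1.78 and 5.72, PTPRC at 0) and of adipocytes (3, between 0.336 and 1.2) were low. Of the immune markers, CD14 fell from 2.59 ± 0.615 to 1.18 ± 0.232 (log2 change -0.71, limma adjusted p = 0.0103), and CD68 did not pass the threshold (limma adjusted p = 0.0523). In the cardiac muscle list only MYH6 passed the minimum, with 11.6 ± 6.91 in NC24h and 91.4 ± 4.21 in NC36h (SD, n = 3 each).

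All 8 measured members were expressed in all 6 libraries and passed the minimum in both groups. Of these, 5 were higher in NC36h by limma at an adjusted p under 0.05 (FOXO1, FOXO3, KLHL31, KLHL40 and ASB2), where 16.5% of all genes tested were higher. None was lower, where 34.4% of all genes tested were lower and 50.9% changed in either direction. The count of 0 lower members also held at an unadjusted p under 0.05 and with limma voom on the recovered fragments. In 6 members, the 5 above and TRIM55, every NC36h library lay above every NC24h library, which 21.0% of all genes tested did. In 0 members did every NC36h library lie below, which 42.6% of all genes did. The median log2 change of the 8 members was 0.73, against -0.16 for all genes tested. The FPKM of a library is a share of its total, so the shift of all genes by -0.16 moves with the scaling. With median-ratio scaling of the libraries the median of all genes was -0.006, and the same 5 members were past the threshold. Of all 14060 genes, 3367 were then higher and 3136 lower. Without NC24h replicate 6, 6 members were higher (TRIM55 joined) and 1 was lower (TRIM63), beside 2452 higher and 4816 lower of 13914 genes tested. In such bulk RNA, fewer cells of a type and less RNA per cell cannot be told apart.

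**Figure D1:**
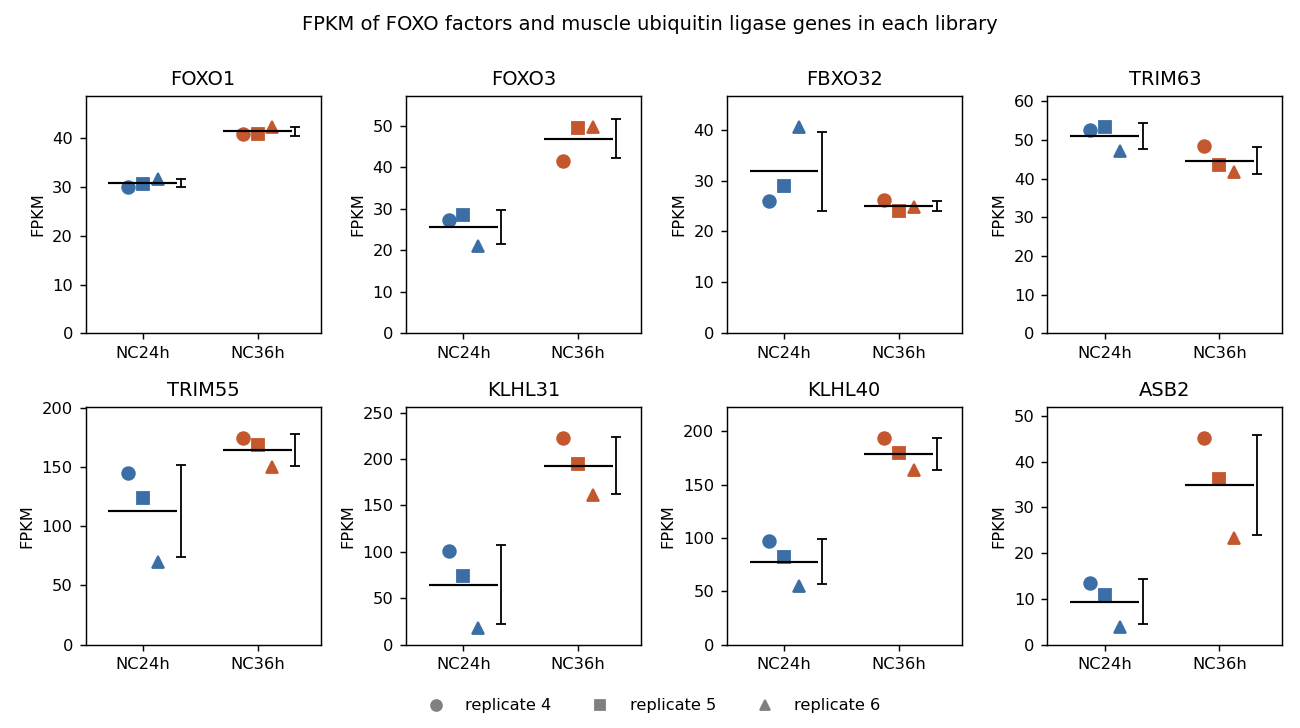
Each panel gives the FPKM (vertical axis, from 0) of 1 gene in the 3 NC24h libraries (blue) and the 3 NC36h libraries (orange), with the replicate number by symbol, the group mean as a line and the SD as a bar. FOXO1, FOXO3, KLHL31, KLHL40, ASB2 and TRIM55 show no overlap between the groups, FBXO32 and TRIM63 overlap, and NC24h replicate 6 (triangle) is the lowest library for KLHL31 at 18.2 and the highest for FBXO32 at 40.6.

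Both FOXO factors rose between NC24h and NC36h. FOXO1 (ENSSSCG00000009370) is annotated by RefSeq on chromosome 11 (Sscrofa11.1) from 15317222 to 15410059. Its FPKM was 30.1, 30.7 and 31.7 in replicates 4, 5 and 6 of NC24h and 40.9, 40.9 and 42.4 in NC36h. The libraries of each group lay close together, with a coefficient of variation of 2.52% in NC24h and 2.19% in NC36h, where the counting error of the library with the fewest fragments (2702) was 1.92%. The rise was 1.34-fold, from 30.8 ± 0.776 to 41.4 ± 0.905 (SD, n = 3 each), a log2 change of 0.41 (standard error, SE, 0.06 by limma, adjusted p = 0.00195). Leaving out NC24h replicate 6, in which most other members departed from their group, gave a log2 change of 0.43 (limma adjusted p = 0.00154).

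FOXO3 (ENSSSCG00000004387), on chromosome 1 from 74626673 to 74760323, is the FOXO factor most often tied to atrophy and autophagy genes in muscle. It had an FPKM of 27.2, 28.5 and 21.0 in NC24h and of 41.5, 49.4 and 49.8 in NC36h. The lowest NC36h library was above the highest NC24h library. The mean went from 25.6 ± 4.01 to 46.9 ± 4.67 (SD, n = 3 each), a 1.83-fold rise and a log2 change of 0.86 (SE 0.13 by limma, adjusted p = 0.00280). Without NC24h replicate 6 the log2 change was 0.73 (limma adjusted p = 0.00167). Both calls held in each fit that left out 1 library.

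FOXO1 made up 52.6%, 51.8% and 60.1% of the summed FPKM of FOXO1 and FOXO3 in NC24h and 49.6%, 45.3% and 46.0% in NC36h, so FOXO1 was the higher of the pair in every NC24h library and the lower in every NC36h library. The difference of the means was -7.87 percentage points (exact permutation test over libraries, two-sided, p = 0.1, the smallest p that 3 against 3 libraries can give, adjusted p = 0.175 over the 7 shares and ratios compared in this way). Levels of 2 genes are compared here per length, and the lengths implied by the deposited values were 5379 bases for FOXO1 and 2475 bases for FOXO3.

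Neither classical atrophy marker passed the threshold. FBXO32 (ENSSSCG00000005981), the F-box adaptor MAFbx, lies on chromosome 4 from 15895875 to 15925929. Its FPKM was 25.9, 28.9 and 40.6 in replicates 4, 5 and 6 of NC24h and 26.1, 24.0 and 24.8 in NC36h. The groups overlapped, and NC24h replicate 6 alone lay far above the rest. The mean was 31.8 ± 7.77 in NC24h and 25.0 ± 1.07 in NC36h (SD, n = 3 each), with a log2 change of -0.31 (95% interval -0.69 to 0.06, limma adjusted p = 0.138). The replicate spread was larger than this difference, which was -0.13 (limma adjusted p = 0.187) without NC24h replicate 6. Only leaving out NC24h replicate 4 brought it past the threshold (log2 change -0.44, limma adjusted p = 0.0475), and the adjusted p ran from 0.0475 to 0.444 over its alternatives.

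TRIM63 (ENSSSCG00000027684), the RING ligase MuRF1, which binds titin and ubiquitinates thick filament proteins, lies on chromosome 6 from 83493200 to 83507471. It had an FPKM of 52.7, 53.5 and 47.1 in NC24h and 48.6, 43.6 and 41.8 in NC36h. The highest NC36h library was above the lowest NC24h library. The mean was 51.1 ± 3.45 in NC24h and 44.7 ± 3.50 in NC36h (SD, n = 3 each). The log2 change of -0.19 (95% interval -0.39 to 0.005, limma adjusted p = 0.0921) was near the median of all genes, and with median-ratio scaling it was -0.02 (limma adjusted p = 0.871). Without NC24h replicate 6 TRIM63 passed the threshold at -0.25 (limma adjusted p = 0.0339), and the adjusted p ran from 0.0339 to 0.871 over its alternatives. FBXO32 took 33%, 35.1% and 46.3% of the summed FPKM of FBXO32 and TRIM63 in NC24h and 35.0%, 35.6% and 37.2% in NC36h, a difference of -2.19 percentage points (exact permutation test, two-sided, p = 0.9, adjusted p = 0.9), which turned to 1.89 without NC24h replicate 6.

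TRIM55 (ENSSSCG00000006216), or MuRF2, is a relative of TRIM63 that associates with microtubules and sarcomeres while myofibrils form. It lies on chromosome 4 from 68487249 to 68530927. Its FPKM was 145, 124 and 69.7 in replicates 4, 5 and 6 of NC24h and 175, 169 and 150 in NC36h. The groups did not overlap, but the highest NC24h library came close to the lowest NC36h library. The mean went from 113 ± 39.0 to 165 ± 13.6 (SD, n = 3 each), a log2 change of 0.60 (95% interval -0.01 to 1.21, limma adjusted p = 0.0882) that did not pass the threshold. It passed when NC24h replicate 4 was left out (log2 change 0.82, limma adjusted p = 0.0311) and when NC24h replicate 6 was (log2 change 0.29, limma adjusted p = 0.0468), and over its alternatives the adjusted p ran from 0.0311 to 0.197. TRIM63 made up 26.6%, 30.1% and 40.4% of the summed FPKM of the 2 TRIM genes in NC24h and 21.7%, 20.5% and 21.9% in NC36h. Each NC36h share was below each NC24h share, and the means differed by -11.0 percentage points (exact permutation test, two-sided, p = 0.1, the smallest possible, adjusted p = 0.175).

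**Figure D2:**
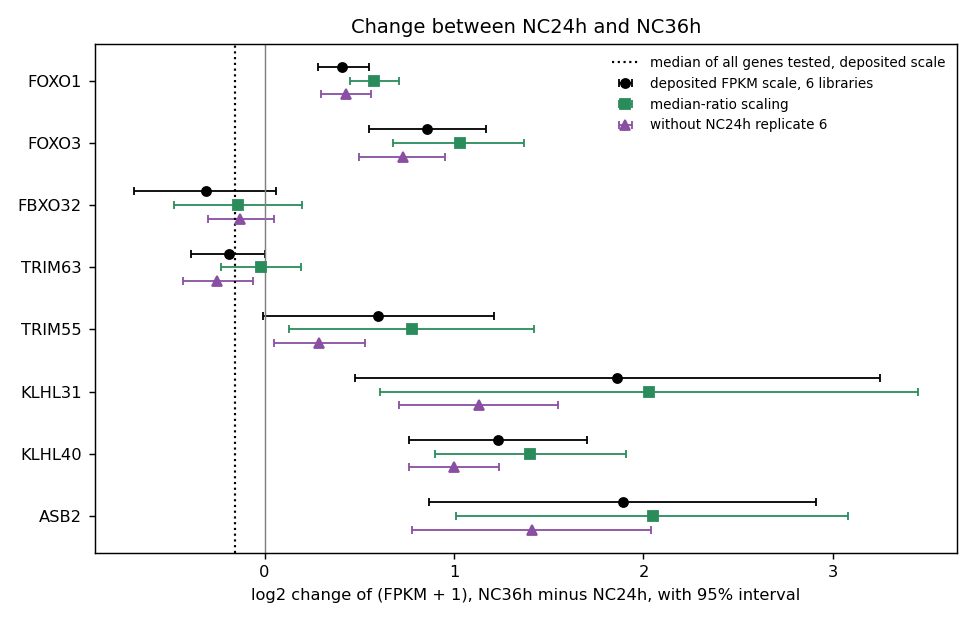
The log2 change of (FPKM + 1), NC36h minus NC24h, is plotted with its 95% interval for the 8 members on the deposited scale (black), with median-ratio scaling (green) and without NC24h replicate 6 (purple), and the dotted line is the median of all genes tested on the deposited scale, -0.16. FOXO1, FOXO3, KLHL31, KLHL40 and ASB2 lie to the right of 0 in all 3 fits, whereas the intervals of FBXO32 include 0 in each.

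The kelch adaptors were among the members that rose most. KLHL31 (ENSSSCG00000001487), a BTB-kelch protein of skeletal and cardiac muscle, lies on chromosome 7 from 27088393 to 27106104. Its FPKM was 101, 74.2 and 18.2 in replicates 4, 5 and 6 of NC24h and 223, 195 and 161 in NC36h. Replicate 6 of NC24h, with 570 fragments, had less than each other library, and the coefficient of variation was 65.7% in NC24h and 16.0% in NC36h. The mean rose 2.99-fold, from 64.6 ± 42.4 to 193 ± 30.8 (SD, n = 3 each), a log2 change of 1.86 (SE 0.58 by limma, adjusted p = 0.0343). Without NC24h replicate 6 the rise was smaller, 2.2-fold with a log2 change of 1.13 (limma adjusted p = 0.00300). That library lay furthest from its group mean, so leaving it out narrows the spread, and the smaller p is no firmer evidence. The call was lost without NC24h replicate 5 (limma adjusted p = 0.0506), without NC36h replicate 4, 5 or 6 (0.0977, 0.0905 and 0.0680) and with no filter on low values (0.0576).

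KLHL40 (ENSSSCG00000011286), which stabilizes nebulin and leiomodin in the thin filament and is mutated in nemaline myopathy, lies on chromosome 13 from 26202607 to 26211528. It had an FPKM of 96.8, 82.0 and 54.9 in NC24h and 194, 180 and 164 in NC36h. Every NC36h library was far above every NC24h library. The mean rose 2.30-fold, from 77.9 ± 21.3 to 179 ± 14.8 (SD, n = 3 each), a log2 change of 1.23 (SE 0.20 by limma, adjusted p = 0.00337), and it was 1.0 (limma adjusted p = 0.000815) without NC24h replicate 6. The call of KLHL40 held in each fit that left out 1 library. KLHL40 made up 48.9%, 52.5% and 75.1% of the summed FPKM of KLHL31 and KLHL40 in NC24h and 46.5%, 48.1% and 50.5% in NC36h, so the kelch genes were at near-equal levels in all libraries but NC24h replicate 6. The difference of -10.5 percentage points between the groups (exact permutation test, two-sided, p = 0.2, adjusted p = 0.28) was -2.31 without that library.

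ASB2 (ENSSSCG00000002467), a SOCS-box adaptor that directs filamins to degradation, lies on chromosome 7 from 115210885 to 115258863. It was the lowest member in NC24h and had the largest rise of the 8 measured members in FPKM, 3.73-fold. Its FPKM was 13.4, 10.9 and 3.87 in replicates 4, 5 and 6 of NC24h and 45.2, 36.3 and 23.4 in NC36h. The groups did not overlap, although the spread was wide in both, with a coefficient of variation of 52.5% and 31.4%. NC24h replicate 6 held 132 fragments, for which the counting error was 8.70%. The log2 change was 1.89 (SE 0.43 by limma, adjusted p = 0.0110), and 1.41 (limma adjusted p = 0.00563, 2.88-fold) without NC24h replicate 6. The call held in each fit that left out 1 library.

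In NC24h the order of mean FPKM was TRIM55 (113), KLHL40 (77.9), KLHL31 (64.6), TRIM63 (51.1), FBXO32 (31.8), FOXO1 (30.8), FOXO3 (25.6) and ASB2 (9.37). The ranges of the first 4 genes overlapped from each gene to the next, and so did those of FBXO32 and FOXO1, whereas TRIM63 and FBXO32, FOXO1 and FOXO3, and FOXO3 and ASB2 did not overlap. In NC36h the order was KLHL31 (193), KLHL40 (179), TRIM55 (165), FOXO3 (46.9), TRIM63 (44.7), FOXO1 (41.4), ASB2 (34.9) and FBXO32 (25.0). Only TRIM55 and FOXO3 were neighbors without overlap there. KLHL31, KLHL40 and TRIM55 lay above 96.7%, 96.5% and 96.2% of the genes tested in NC36h, and ASB2 moved from above 47.2% of them in NC24h to above 81.1%. FBXO32 went from above 78.3% to above 74.7%. These levels are FPKM and rest on the annotated lengths, between 1169 bases for TRIM63 and 5379 for FOXO1.

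NC24h replicate 6 departed from the other NC24h libraries in the members in both directions. It held the lowest FPKM of the 6 libraries for FOXO3, TRIM55, KLHL31, KLHL40 and ASB2, and the highest for FBXO32. In log2(FPKM + 1) it lay below its group mean by -1.46 in KLHL31, -0.95 in ASB2, -0.62 in TRIM55, -0.46 in KLHL40 and -0.26 in FOXO3, above it by 0.37 in FBXO32, and within 0.11 of it in TRIM63 and FOXO1 (deviations of -0.11 and 0.04). The same library had the lowest sum of myotube markers and the highest sum of proliferation markers, and the part of either in the members' values was not tested. Within NC36h the libraries had the same order, replicate 4 highest and replicate 6 lowest, in TRIM63, TRIM55, KLHL31, KLHL40 and ASB2.

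**Figure D3:**
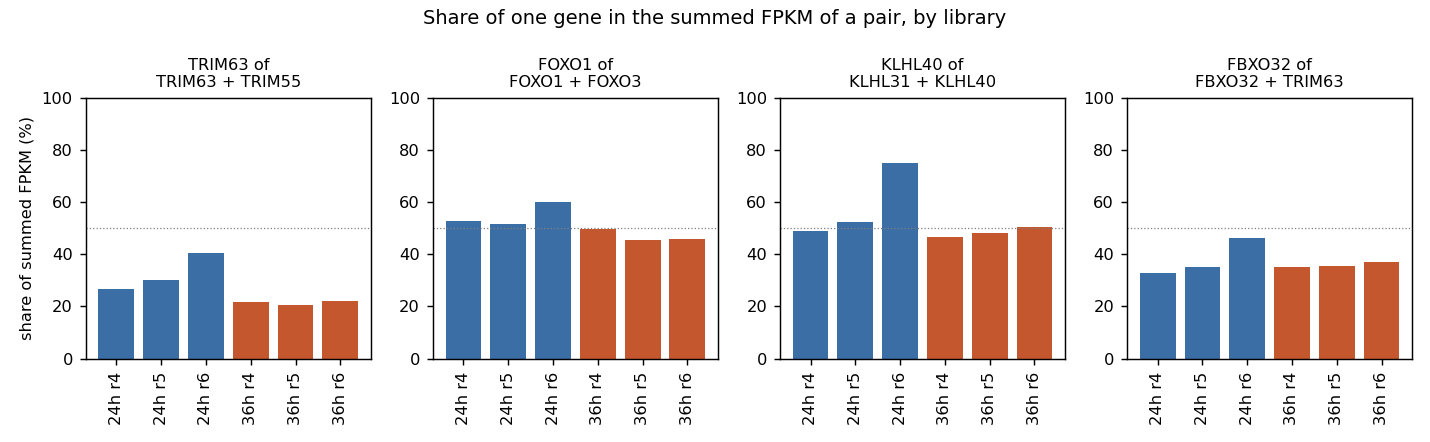
Each bar is the share (percent, axis from 0 to 100) of 1 gene in the summed FPKM of a pair in 1 library, NC24h in blue and NC36h in orange, with r4, r5 and r6 for the replicates and a dotted line at 50%. The TRIM63 share of the TRIM pair is between 20.5% and 21.9% in NC36h and at least 26.6% in NC24h, and NC24h replicate 6 has the highest share in all 4 panels.

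Of 22 genes tested that regulate FOXO factors, 2 rose and 10 fell (9.09% and 45.5%, beside 16.5% and 34.4% of all genes), with a median log2 change of -0.18. With median-ratio scaling 6 fell, and the falls among all 14060 genes went from 4834 to 3136. The rises were PPARGC1A, a coactivator of mitochondrial genes that opposes FOXO3 in muscle (2.38 ± 0.257 to 4.23 ± 1.01 FPKM, log2 change 0.61, limma adjusted p = 0.0191), and SIRT2, a deacetylase (41.3 ± 0.642 to 53.8 ± 2.03, log2 change 0.37, limma adjusted p = 0.00275). PHLPP1, a phosphatase that removes an activating phosphate from AKT, fell from 59.4 ± 2.75 to 27.2 ± 1.30 FPKM (log2 change -1.10, limma adjusted p = 0.000586). AKT2, the isoform of insulin response in muscle, was at 202 ± 19.6 and 211 ± 3.97 (log2 change 0.07, 95% interval -0.13 to 0.27). YWHAZ, a 14-3-3 protein that holds phosphorylated FOXO in the cytoplasm, fell from 295 ± 42.1 to 163 ± 7.51 (log2 change -0.84, limma adjusted p = 0.00166). FOXO4, another FOXO factor, had 35.8 ± 5.62 and 39.6 ± 2.43, and its log2 change of 0.15 (95% interval -0.13 to 0.44) did not pass the threshold.

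Genes known as FOXO targets moved in both directions. Of 20 tested, 6 rose and 6 fell (30.0% each, beside 16.5% and 34.4% of all genes), with a median log2 change of -0.03. With median-ratio scaling 2 fell, beside 3136 of all 14060 genes. BBC3, which promotes apoptosis, went from 2.79 ± 0.244 to 5.87 ± 0.845 FPKM (log2 change 0.85, limma adjusted p = 0.00215), and TP53INP2, an autophagy cofactor, from 43.3 ± 5.56 to 75.0 ± 1.28 (0.79, limma adjusted p = 0.00163). ULK2, a kinase that starts autophagy, rose from 88.0 ± 10.8 to 123 ± 4.35 (0.49, limma adjusted p = 0.00712), and ULK1, PINK1 and MAP1LC3B rose by 0.41, 0.44 and 0.29. CAT, the catalase that breaks down hydrogen peroxide, fell from 61.4 ± 13.0 to 25.1 ± 1.28 (log2 change -1.24, limma adjusted p = 0.00133). INSR, the insulin receptor, fell from 5.52 ± 0.665 to 2.56 ± 0.0819 (-0.87, limma adjusted p = 0.00144). BNIP3L, a mitophagy receptor, and GABARAPL1, an autophagosome protein, fell by 0.50 and 0.36 on the log2 scale (limma adjusted p = 0.0304 and 0.0289), and neither passed with median-ratio scaling (0.0977 and 0.146).

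Among other ubiquitin ligases and adaptors of muscle, 7 of 33 rose and 13 fell (21.2% and 39.4%, beside 16.5% and 34.4% of all genes). Their median log2 change was -0.15. With median-ratio scaling 6 fell, beside 3136 of all 14060 genes. The largest rise was that of TRIM72, the TRIM protein of membrane repair, whose FPKM was 536, 506 and 301 in NC24h and 1150, 1080 and 940 in NC36h (log2 change 1.28, limma adjusted p = 0.00422). KLHL30, another kelch protein, had 69.1, 53.9 and 20.4 in NC24h and 92.0, 97.9 and 101 in NC36h (log2 change 1.17, limma adjusted p = 0.0483). ASB5, a SOCS-box relative of ASB2, rose by 1.03 (limma adjusted p = 0.0129). ASB4 (0.477 ± 0.262 and 2.15 ± 0.958 FPKM in NC24h and NC36h) and NEURL2 (0.771 ± 0.0768 and 1.49 ± 0.135) are counted among the 7, but they passed the minimum only through NC36h, where they were high, and with a minimum of 5 the count was 5. The largest falls were those of KLHL9 (25.5 ± 2.47 to 14.9 ± 1.22 FPKM, log2 change -0.73, limma adjusted p = 0.00176), CBL, which ubiquitinates receptor tyrosine kinases (log2 change -0.62, limma adjusted p = 0.00312), and WWP1, a HECT ligase (-0.55, limma adjusted p = 0.00148). The F-box gene FBXO30, another adaptor induced in denervated muscle, was at 21.4 ± 5.56 and 20.7 ± 1.45 FPKM (log2 change -0.02, 95% interval -0.46 to 0.42).

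None of CUL1, CUL3 and CUL5 passed the threshold. Of 15 cullin-RING scaffold genes tested, 4 rose and 3 fell (26.7% and 20%, beside 16.5% and 34.4% of all genes). Their median log2 change was -0.05. CUL3, the cullin of kelch adaptors, was at 17.6 ± 1.13 FPKM in NC24h and 17.7 ± 0.789 in NC36h (log2 change 0.01, 95% interval -0.16 to 0.18). CUL5, the cullin of SOCS-box adaptors, had 20.2 ± 2.36 and 21.8 ± 2.07 (0.10, -0.16 to 0.36), and CUL1, the cullin of F-box adaptors, had 41.3 ± 5.42 and 38.6 ± 2.42 (-0.09, -0.34 to 0.16). ELOB, an elongin of the complex between SOCS-box proteins and CUL5, rose from 249 ± 17.8 to 303 ± 6.59 (log2 change 0.28, limma adjusted p = 0.0159). Its partner elongin ELOC, picked after its values were seen, had 48.5 ± 0.668 and 46.7 ± 2.25 (log2 change -0.05, 95% interval -0.20 to 0.09). CAND2, a muscle form of the factor that exchanges cullin adaptors, rose by 0.85 (limma adjusted p = 0.0156), and CUL4A rose by 0.51 (limma adjusted p = 0.00370). CUL7, CUL4B and CAND1 fell by 0.78, 0.65 and 0.45 on the log2 scale (limma adjusted p = 0.00270, 0.00295 and 0.00718).

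Set against their cullins, the kelch and SOCS-box adaptors were higher in every NC36h library than in every NC24h library, and the F-box adaptor was not. KLHL31 and KLHL40 together had 10.5, 8.98 and 4.39 times the FPKM of CUL3 in NC24h and 22.4, 21.5 and 19.0 times in NC36h. ASB2 had 0.590, 0.541 and 0.216 of the FPKM of CUL5 in NC24h and 1.98, 1.57 and 1.21 in NC36h, so it was below CUL5 in every NC24h library and above it in every NC36h library. FBXO32 had 0.560, 0.685 and 1.14 of the FPKM of CUL1 in NC24h and 0.635, 0.627 and 0.681 in NC36h, which overlap. These 3 ratios were chosen after the values were seen and restate the adaptors' own differences over cullins that did not pass the threshold, so no test of them is given.

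Of the proteins described as substrates or partners of the members, 10 of 19 tested rose and 4 fell (52.6% and 21.1%). Of all genes tested, 16.5% rose and 34.4% fell. The median log2 change of the 19 was 0.47. With median-ratio scaling 11 rose and 2 fell, beside 3367 and 3136 of all 14060 genes. The largest rises were those of ACTA1, skeletal muscle actin (1250 ± 710 to 5570 ± 486 FPKM, log2 change 2.37, limma adjusted p = 0.00711), TCAP, the titin cap (3.22 ± 1.71 to 16.5 ± 2.44, 2.12, limma adjusted p = 0.00206), and DYSF, a membrane repair protein (1.62 ± 0.592 to 10.4 ± 3.96, 2.08, limma adjusted p = 0.00223). Many of them are sarcomere proteins, and 4 of the 19 tested are also in the list of myotube markers (ACTA1, MYL1, TNNI1 and NEB). NEB, the nebulin that KLHL40 protects, was at 289, 259 and 169 in NC24h and 456, 436 and 385 in NC36h (log2 change 0.86, limma adjusted p = 0.0112). FLNC, the filamin of muscle and one of the filamins that ASB2 binds, rose from 724 ± 144 to 991 ± 31.0 FPKM (log2 change 0.47, limma adjusted p = 0.0365). SMAD9 and VIM fell by 0.72 and 0.66 on the log2 scale (limma adjusted p = 0.0181 and 0.0369), and VIM did not pass with median-ratio scaling (0.0835). MYOD1, a substrate of FBXO32, had 255, 306 and 386 in NC24h and 246, 258 and 258 in NC36h (log2 change -0.29, 95% interval -0.63 to 0.05), and like FBXO32 it was highest in NC24h replicate 6. SQSTM1 and NBR1, which link TRIM55 to the titin kinase, had log2 changes of 0.00 (95% interval -0.14 to 0.15) and -0.06 (-0.21 to 0.10), and SRF, the transcription factor downstream of them, rose from 44.7 ± 3.16 to 53.7 ± 1.30 (log2 change 0.26, limma adjusted p = 0.0191). NEB, FLNC, MYOD1, SQSTM1, NBR1 and SRF were picked from the list for their part in the members' biology after the values were seen.

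**Figure D4:**
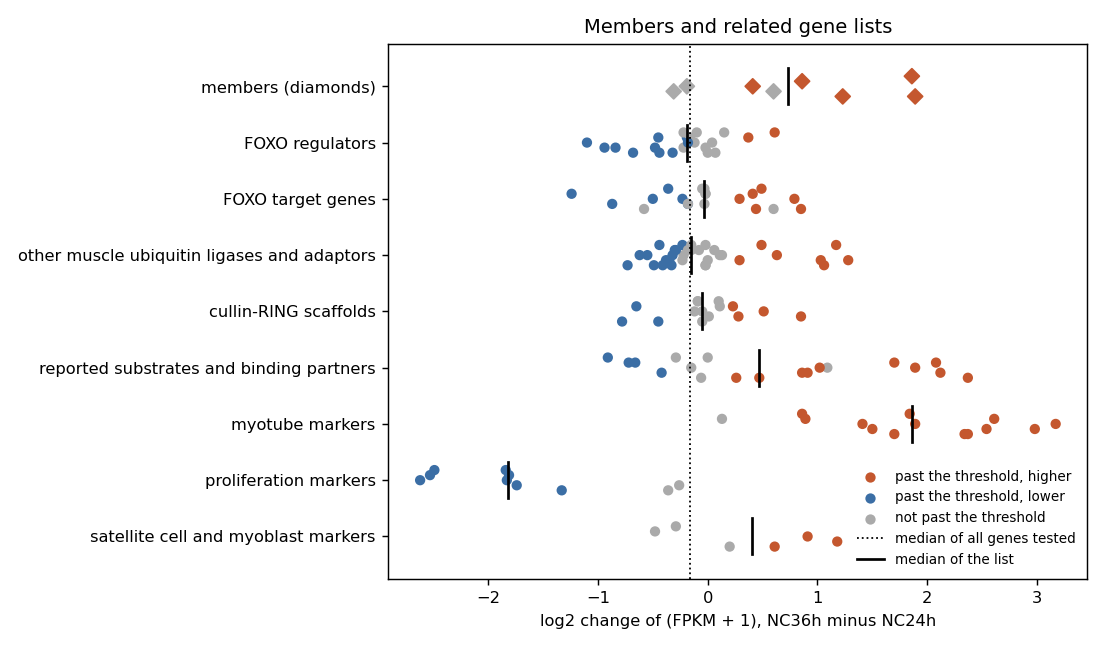
Each point is the log2 change of (FPKM + 1), NC36h minus NC24h, of 1 tested gene in the list named on the left, orange where higher and blue where lower at a limma adjusted p under 0.05 and grey otherwise, with the list's median as a bar and the median of all genes tested (-0.16) as a dotted line. The members (diamonds) spread from -0.31 to 1.89 with a median of 0.73, and the regulators and targets of FOXO had medians of -0.18 and -0.03 and the myotube markers one of 1.86.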

How the data were processed

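RNA-seq of 6 PSC libraries was analysed. The authors deposited FPKM values, 1 column per library and none pooled. Their methods name HISAT2, StringTie and HTSeq on paired-end reads and Sscrofa11.1, whereas the submitters' processing notes name TopHat2, Cufflinks and HTSeq. Strandedness and the handling of shared reads are not given in the sources used here, so reads of related genes may be split in ways that could not be checked.

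FPKM values are not counts. A linear model of log2(FPKM + 1) was run in limma 3.58.1 under R 4.3.3, with the trended, two-sided eBayes test, on the 14060 genes that averaged 1 FPKM or more. P-values were adjusted over these genes by Benjamini-Hochberg, with a threshold of 0.05. Whole fragments were recovered for all 19543 genes above 0 in at least 3 libraries, and in 99.1% the implied length was within 0.05 of a whole number. Counting errors cover counting only. Both steps were tested on simulated data. Shares were compared by exact permutation over libraries, with p-values adjusted over these and the ratios. The shares of TRIM and kelch genes were planned with TRIM54 and KLHL41 and were computed without them, and the share of FBXO32 and the ratios were chosen after the values were seen.

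Symbols were paired with 11804 of 25322 Ensembl identifiers, so each list covers only its genes with a paired row. Members and lists were chosen with earlier results of these data known. Genes named are the members and, in each list, up to 3 rises and 3 falls past the threshold with the largest changes, and FOXO4, AKT2, ULK1, PINK1, MAP1LC3B, GABARAPL1, ASB5, FBXO30, NEURL2, CUL1, CUL3, CUL5, the marker genes and those said so in the text were named after their values were seen. Some genes that this rule names are not reported here. Replicate numbers were not taken as pairs. Coordinates are from RefSeq for Sscrofa11.1.

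The alternatives changed the pseudocount (0.1 or 0.01), dropped the low-value filter or raised it to an average of 5 FPKM, scaled libraries by median ratios or by quantiles, left out the eBayes trend, added a replicate block, ran limma voom on fragments and used a further minimum of 1 for the absolute log2 change, a log2 ratio in place of a share, and fits without each library in turn.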

Additional observations from a re-analysis of the deposited data

How the results depend on the processing

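The number of genes past the threshold (7156) stayed within 1.5 times in each alternative but an absolute log2 change of at least 1, which left 1176 genes and, of the members, 3 higher (KLHL31, KLHL40 and ASB2) by construction. Without 1 library each, it ranged from 4881 to 7268, the members higher from 4 to 6 and the members lower from 0 to 1. No member turned its direction in the 16 alternatives. With the replicate block 7034 genes were called and TRIM55 joined the higher members (limma adjusted p = 0.0338), while no other member's call changed. Across genes, libraries with the same number departed from their groups with correlations of 0.15, -0.02 and 0.18 for numbers 4, 5 and 6, so the numbers were not taken as pairs. Scaling moved the split of all calls from 32.4% higher to 51.8% (median ratios) and 46.2% (quantiles).

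The lower counts of 4 lists depended on it, and that of the scaffolds was 3 under both scalings, as on the deposited scale. Median-ratio scaling left 6 regulators, 2 targets, 6 other ligases and 2 partners lower, and quantile normalization left 6, 3, 7 and 2, in place of 10, 6, 13 and 4. With a mean FPKM of at least 5 there was 1 regulator higher and 1 partner lower, since fewer genes were tested. Requiring a log2 change of at least 1 left 0 and 1 regulators higher and lower, 0 and 1 targets, 4 and 0 other ligases, 0 and 0 scaffolds, and 6 and 0 partners. Without 1 library each, counts higher and lower ranged from 1 to 2 and 7 to 12 for regulators, 4 to 6 and 2 to 5 for targets, 4 to 7 and 8 to 16 for other ligases, 2 to 4 and 3 to 4 for scaffolds, and 7 to 11 and 1 to 5 for partners.

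Without 1 library each, the share of TRIM63 differed by -13.9 to -7.05 percentage points, that of FOXO1 by -9.39 to -5.23, that of KLHL40 by -15.4 to -2.31 and that of FBXO32 by -4.76 to 1.89, reversed at 1.89 without NC24h replicate 6. The ratio of kelch genes to CUL3 differed by 11.2 to 14.3, of ASB2 to CUL5 by 0.940 to 1.33, and of FBXO32 to CUL1 by -0.267 to 0.025, reversed at 0.025 without NC24h replicate 6. The cause was not tested. With 3 libraries a group, exact tests cannot go below 0.1.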
